A study of Mus musculus with 23 samples.

Results

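The NRF2 pathway was followed in 10 genes of the astrocyte count table, chosen by symbol from a table of 24411 genes: Nfe2l2, which encodes the transcription factor NRF2, Keap1, which encodes its inhibitor, and 8 targets of NRF2 (Slc7a11, Gclc, Gclm, Txnrd1, Srxn1, Nqo1, Hmox1 and Osgin1). All 10 had enough reads to be tested in every comparison. The question addressed was whether a diet with sulforaphane (SFN), a compound from broccoli sprouts, raised NRF2 target transcripts in cortical astrocytes. Each library came from the ACSA-2-positive cells that magnetic beads (MACS) drew from the dissociated cerebral cortex of 1 mouse, and n is the number of mice.

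All mice carried 2 floxed Aldh7a1 alleles and received 4-hydroxytamoxifen at postnatal days 3 to 4, so that the controls share both. ConAstro mice were Aldh7a1-Flox/Flox littermates without Cre, and cKOAstro mice were Slc1a3-CreER/+; Aldh7a1-Flox/Flox, in which CreER sits at 1 allele of Slc1a3 and acts in cells that use this gene at the time of injection. Mice were labelled male and were fed the control diet (4 ConAstro and 7 cKOAstro) or the SFN diet (5 SFN-fed ConAstro, 7 SFN-fed cKOAstro) from postnatal day 21 until tissue was taken at day 70. The diet was thus continuous over weeks, and an early response to it was not measured here.

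NRF2 is made continuously, and in unstressed cells KEAP1 binds it and hands it to a CUL3 ubiquitin ligase for degradation. SFN modifies cysteines of KEAP1, NRF2 then escapes degradation, enters the nucleus and, with a small MAF protein, binds antioxidant response elements near genes for glutathione synthesis, thiol reduction, NADPH supply, quinone reduction and heme breakdown. Control of NRF2 therefore acts largely on the protein, while its targets are read out as RNA, and in the cortex astrocytes are a main site of this pathway and of glutathione production for neurons.

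Libraries held between 46890715 and 391701247 counts. Aldh7a1 lay between 177 and 224 CPM (counts scaled to library size with the trimmed mean of M values, TMM) in the libraries labelled Con, and between 42.8 and 77.7 CPM in those labelled cKO, with 1 exception on each side. The library labelled SFN-fed ConAstro 1 had 55.3 CPM, and the library labelled SFN-fed cKOAstro 2 had 221 CPM. Slc1a3 and Esr1, which also differed by genotype label, placed these 2 libraries in the same way. The library labelled cKOAstro 2 had 1536 CPM of Xist and 0.01 CPM of Ddx3y, against at most 0.70 and at least 83.7 CPM elsewhere. All 3 were kept in their labelled groups, and only for some genes and counts is a value without them also given. Every one of 10 astrocyte markers was detected in every library, with summed levels of 14414 to 25787 CPM, but the summed level of 6 oligodendrocyte markers was 20280 to 54156 CPM. In such bulk libraries fewer cells of a type and less RNA per cell cannot be told apart. Library names held a numbered prefix or the word Astro, and in Con mice no prefix was shared between the diets, so prefix and diet cannot be told apart there. In cKO mice only Astro was shared. The numbered cKO libraries had prefixes 141 and 146 on the control diet and 143 and 147 on the SFN diet. Among them prefix and diet cannot be told apart either.

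Compared per kilobase of exon, the members spanned a wide range of levels. Slc7a11 averaged 25.6 CPM per kb over the 23 libraries, with libraries from 14.4 to 35.4. Next came Nfe2l2 at 19.0, Gclc at 18.3, Keap1 at 14.4, Gclm at 11.1, Srxn1 at 10.6, Txnrd1 at 8.74, Hmox1 at 7.89 and Nqo1 at 5.90 CPM per kb. Osgin1 was lowest at 0.62 CPM per kb, with libraries from 0.36 to 1.12. Between neighbours in this order the ranges over libraries overlapped, except between Keap1, whose lowest library had 13.3 CPM per kb, and Gclm, whose highest had 12.6, and between Nqo1, whose lowest library had 4.13 CPM per kb, and Osgin1.

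Antioxidant response elements in the promoters were looked up first, because they are the sequences that link NRF2 to these genes. RefSeq promoter windows of GRCm38.p6, from 250 bases before to 50 bases after a transcription start, were matched for 8 of the 10 genes. Gclc and Hmox1 were not matched. The core element TGACNNNGC was searched on both strands, and it lay in the windows of 4 of these 8 genes (Nfe2l2, Gclm, Txnrd1 and Srxn1), against 13.99% of 27025 genes with a window. The stricter form TGANTCAGC, of the same length with fewer free bases, was also searched on both strands. It is not a subset of the core element, which has C where this form has its free base. This form lay in the windows of 2 genes (Srxn1 and Osgin1), against 1.37% of genes. Both matches have G at the free base, so they are not core matches, and Osgin1 had no core match. A site with C at the free base of the stricter form would count under both forms, and 175 of 32851 windows held both. A match is a match of letters only, and a missing match says only that these letters are not in this window.

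The 4 stretches with the core element are shown with the matched letters in capitals, 5′ to 3′ on the strand of the gene. That of Nfe2l2 (chr2:75704885-75704913, minus strand) begins 240 bases before the start, that of Gclm (chr3:122245413-122245441, plus strand) 134 bases before and that of Txnrd1 (chr10:82859104-82859132, plus strand) 92 bases before, counted to the first capital. Txnrd1 had several windows, and the match lay only at a start inside the gene, which begins at 82833951. The Srxn1 match (chr2:152105542-152105570, plus strand) begins 29 bases after the start.
Nfe2l2: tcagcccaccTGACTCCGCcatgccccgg
Gclm: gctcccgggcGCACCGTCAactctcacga
Txnrd1: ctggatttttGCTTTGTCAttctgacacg
Srxn1: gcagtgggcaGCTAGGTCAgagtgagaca

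The 250 bases before the start are shown for Srxn1 (chr2:152105274-152105523, plus strand) and Osgin1 (chr8:119436897-119437146, plus strand), the genes with the stricter form, again with the match in capitals. It begins 45 bases before the start in Srxn1 and 99 bases before it in Osgin1, where it lies on the strand opposite to the gene. The Osgin1 start used here lies inside the gene, which begins at 119434124.
Srxn1: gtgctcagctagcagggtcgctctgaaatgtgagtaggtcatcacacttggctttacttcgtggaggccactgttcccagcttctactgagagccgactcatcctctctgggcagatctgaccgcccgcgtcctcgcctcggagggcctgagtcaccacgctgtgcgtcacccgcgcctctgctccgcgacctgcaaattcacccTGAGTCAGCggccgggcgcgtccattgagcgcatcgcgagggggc
Osgin1: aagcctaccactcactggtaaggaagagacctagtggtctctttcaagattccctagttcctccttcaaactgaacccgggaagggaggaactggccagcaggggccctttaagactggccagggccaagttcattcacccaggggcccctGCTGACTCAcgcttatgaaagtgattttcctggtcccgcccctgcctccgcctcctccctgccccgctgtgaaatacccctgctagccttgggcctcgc

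None of the 10 genes passed the test for the SFN diet in ConAstro, in cKOAstro or in both genotypes together. In ConAstro 0 of 10 passed at an adjusted p of 0.05 in edgeR's quasi-likelihood test, against 0% of 16509 genes tested, and in cKOAstro 0 of 10, against 0% of 16903. At an unadjusted p under 0.05 the numbers were 0 of 10 in ConAstro (6.54% of all genes, 1079 in number) and 2 of 10 in cKOAstro (10.9%, 1839 genes), 1 of them higher and 1 lower. The 2 diets overlapped for all 10 members in each genotype, where 2.04% of genes in ConAstro and 0.0947% in cKOAstro showed no overlap. DESeq2 called 24 genes in ConAstro and 15 in cKOAstro, and no member was among them. The median log2 fold change over the members was 0.01 in ConAstro and 0.05 in cKOAstro, and in the first of these 8 of 10 lay above 0 against 48.4% of all genes, in the second 8 of 10 against 51.5%.

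**Figure D1:**
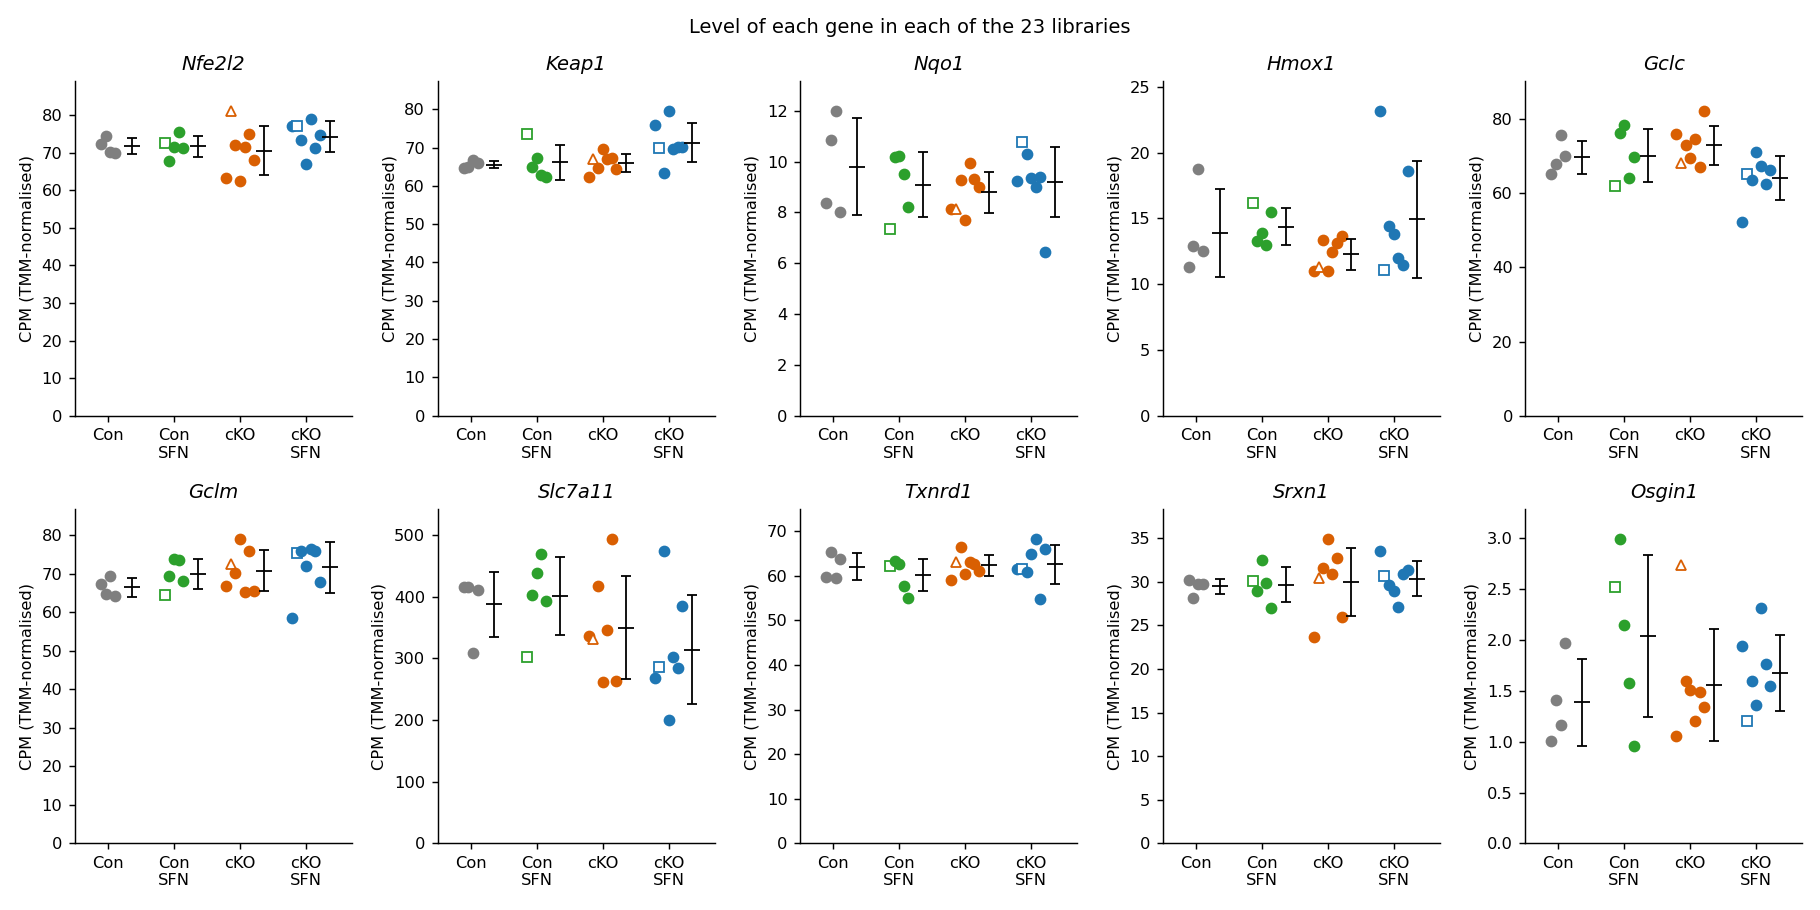
Level of each gene in CPM (TMM-normalised, linear axes from 0) in every library, by group: ConAstro (Con, grey), SFN-fed ConAstro (Con SFN, green), cKOAstro (cKO, orange) and SFN-fed cKOAstro (cKO SFN, blue). Each symbol is 1 mouse, open squares mark the 2 libraries with the Aldh7a1 level of the other genotype, the open triangle marks cKOAstro 2, and bars are means ± SD. For every gene the libraries on the SFN diet overlap those on the control diet of the same genotype.

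Nfe2l2 (chromosome 2, 75675513 to 75704641, GRCm38, minus strand), the NRF2 gene itself, had nearly the same level on both diets in ConAstro. The 4 ConAstro libraries had 72.3, 74.4, 70.1 and 69.96 CPM, and the 5 SFN-fed ConAstro libraries had 72.6, 67.7, 71.4, 75.4 and 71.1 CPM. The groups overlapped throughout, at 71.7 ± 2.08 and 71.6 ± 2.78 CPM (mean ± SD). On the log2 scale the diet difference was 0.0016 ± 0.041 (SE), with a 95% interval, given here and in the following as percent change, of -6.01% to 6.63% (edgeR adjusted p = 0.993). In cKOAstro the lowest, median and highest of 7 libraries were 62.4, 71.6 and 80.9 CPM, and in SFN-fed cKOAstro they were 67.0, 74.7 and 79.0 CPM. Again the diets overlapped, and the highest value of all 23 belonged to cKOAstro 2 on the control diet. Here the log2 fold change was 0.08 ± 0.065, with an interval of -3.62% to 16.7% (edgeR adjusted p = 0.602).

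Keap1 (chromosome 9, 21229730 to 21239361, minus strand) encodes the adaptor that holds NRF2 for degradation. It had 64.8, 64.8, 66.7 and 66.0 CPM in the ConAstro libraries, the tightest group of any member. The SFN-fed ConAstro libraries had 73.5, 64.9, 67.4, 62.7 and 62.4 CPM, on both sides of the controls. Its log2 fold change in ConAstro was 0.02 ± 0.054 (edgeR adjusted p = 0.961), and -0.03 without SFN-fed ConAstro 1, the highest of the 5. In cKOAstro the lowest, median and highest libraries had 62.3, 66.9 and 69.6 CPM, and in SFN-fed cKOAstro 63.4, 70.1 and 79.4 CPM. Of the 7 SFN-fed cKOAstro libraries 6 lay above every cKOAstro library, and the remaining library, replicate 3, lay below the cKOAstro median. SFN over control diet gave a log2 fold change of 0.12 ± 0.053, or 8.63% with an interval of 0.48% to 17.4% (edgeR adjusted p = 0.459, not past the threshold). It was 0.09 among the numbered cKO libraries and 0.10 among the Astro-named ones. The highest Keap1 level, 79.4 CPM in SFN-fed cKOAstro 4, came from the library with the highest oligodendrocyte marker sum (54156 CPM) and the lowest astrocyte marker sum (14414 CPM), and the part of these in the result was not tested. Without that library the log2 fold change in cKOAstro was 0.10. An antisense gene, Gm16754, overlaps Keap1 exons, and as the library kit keeps no strand, its reads there cannot be told apart from those of Keap1.

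Among the genes of glutathione synthesis, Slc7a11 (chromosome 3, 49892526 to 50443614, minus strand) encodes the cystine-glutamate exchanger xCT. It brings in cystine, a source of the cysteine that limits glutathione. The ConAstro libraries had 415, 415, 308 and 411 CPM, and the SFN-fed ConAstro libraries 301, 403, 438, 468 and 393 CPM. Each diet thus had 1 low library, with the rest well above it. These libraries, ConAstro 3 and SFN-fed ConAstro 1, also had the lowest astrocyte marker sums of their groups (18954 and 18012 CPM). The log2 fold change was 0.05 ± 0.13, with an interval of -15.5% to 27.3% (edgeR adjusted p = 0.947). In cKO mice the spread was wider, with 261, 337 and 493.1 CPM as the lowest, median and highest of cKOAstro and 201, 287 and 474 CPM in SFN-fed cKOAstro. The log2 fold change there was -0.15 ± 0.18, with an interval of -30.8% to 18.1% (edgeR adjusted p = 0.774). Library names moved with this gene: the 5 Astro-named cKO libraries had 201 to 332 CPM with a median of 284, and the 9 numbered ones 263 to 493.1 CPM with a median of 346. On the log2 scale the diet difference was -0.18 among Astro-named cKO libraries and -0.08 among numbered ones, whose prefixes differed between the diets. The lowest library of all, SFN-fed cKOAstro 4, was again the one richest in oligodendrocyte markers, and without it the difference was -0.06. Without cKOAstro 6, the highest control, it was -0.03, and without SFN-fed cKOAstro 3 it was -0.26. SFN-fed cKOAstro 4 also had the lowest astrocyte marker sum of all libraries (14414 CPM), and cKOAstro 6 had the highest (25787 CPM). By contrast, cKOAstro 4 had 261 CPM of Slc7a11 at an astrocyte sum of 21147 CPM. The part of cell makeup in the Slc7a11 values was not tested.

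Gclc (chromosome 9, 77754535 to 77794485, plus strand) and Gclm (chromosome 3, 122245557 to 122270732, plus strand) encode the catalytic and the modifier subunit of glutamate-cysteine ligase, the first enzyme of glutathione synthesis. Gclc had 65.1, 68.0, 75.7 and 69.9 CPM in ConAstro and 62.0, 76.3, 78.4, 64.1 and 69.7 CPM in SFN-fed ConAstro, where the SFN-fed libraries lay on both sides of the controls. On the log2 scale the diet difference was 0.01 ± 0.081 (edgeR adjusted p = 0.984). In cKO mice Gclc lay lower on the SFN diet: cKOAstro had 67.1, 73.1 and 82.0 CPM as lowest, median and highest, and SFN-fed cKOAstro 52.2, 65.2 and 71.1 CPM. No SFN-fed cKOAstro library reached the cKOAstro median, and 5 of 7 lay below every cKOAstro library. SFN over control diet gave a log2 fold change of -0.18 ± 0.066, or -11.5% with an interval of -19.7% to -2.52% (edgeR adjusted p = 0.459, not past the threshold). It was -0.28 among numbered libraries, -0.04 among Astro-named ones and -0.13 without SFN-fed cKOAstro 1, the lowest library. The difference between the genotypes in this diet effect was -0.20 ± 0.10 on the log2 scale (edgeR adjusted p = 0.678).

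The modifier subunit gene Gclm did not follow Gclc. Its 4 ConAstro libraries lay between 64.3 and 69.5 CPM and the 5 SFN-fed ConAstro libraries between 64.4 and 73.8 CPM, with 3 of the 5 above all controls. The log2 fold change was 0.08 ± 0.052, with an interval of -2.76% to 14.1% (edgeR adjusted p = 0.832). In cKOAstro and SFN-fed cKOAstro the medians were 70.3 and 75.5 CPM and the means 70.8 ± 5.32 and 71.7 ± 6.60 CPM. That fold change was 0.03 ± 0.071 (edgeR adjusted p = 0.904). SFN-fed cKOAstro 1 had the lowest level of both subunits among the 23 libraries, 52.2 CPM of Gclc and 58.5 CPM of Gclm. Exons of Gclm overlap the antisense gene Gm17494 and the pseudogene Gm6061, neither of which is listed in the count table, so reads from them could have been counted as Gclm.

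Of the genes of thiol reduction, Txnrd1 varied least between libraries of all 10 members, with a ratio of 1.24 from the highest to the lowest library, while this ratio was 1.47 for Srxn1. Txnrd1 (chromosome 10, 82833951 to 82897712, plus strand) encodes cytosolic thioredoxin reductase, and its 23 libraries lay between 54.9 and 68.2 CPM. Group means were 62.1 ± 2.98 CPM in ConAstro, 60.2 ± 3.64 in SFN-fed ConAstro, 62.3 ± 2.41 in cKOAstro and 62.6 ± 4.37 in SFN-fed cKOAstro. The log2 fold change on the diet was -0.04 ± 0.056 in ConAstro, with an interval of -10.9% to 6.07%, and 0.02 ± 0.052 in cKOAstro, with an interval of -6.26% to 9.15% (edgeR adjusted p = 0.903 and 0.927).

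Srxn1 (chromosome 2, 152105516 to 152111376, plus strand) encodes sulfiredoxin, which restores overoxidised peroxiredoxins. Its levels were 30.2, 28.2, 29.7 and 29.7 CPM in ConAstro and 30.1, 29.0, 32.5, 29.9 and 26.9 CPM in SFN-fed ConAstro. Here 1 SFN-fed library lay above and 1 below all controls. Group means in cKO mice were 30.0 ± 3.89 CPM on the control diet and 30.3 ± 2.01 CPM on the SFN diet. The log2 fold changes were 0.01 ± 0.063 and 0.02 ± 0.083, with upper ends of the 95% interval at 11.3% in ConAstro and 15.0% in cKOAstro (edgeR adjusted p = 0.973 and 0.935). Both promoter forms of the antioxidant response element shown above lie at this gene.

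Nqo1 (chromosome 8, 107388225 to 107403206, minus strand) encodes the quinone reductase that is the usual readout of SFN. The ConAstro libraries had 8.38, 10.8, 11.97 and 8.01 CPM, and the SFN-fed ConAstro libraries 7.35, 10.2, 10.2, 9.50 and 8.21 CPM. No SFN-fed ConAstro library lay above the highest control. On the log2 scale the diet difference was -0.10 ± 0.15, with an interval of -26.8% to 18.1% (edgeR adjusted p = 0.911). In cKOAstro the lowest, median and highest libraries had 7.69, 9.00 and 9.94 CPM, and in SFN-fed cKOAstro 6.42, 9.34 and 10.8 CPM. Of the 7 SFN-fed cKOAstro libraries 6 lay above the cKOAstro median and 2 above every cKOAstro library, 1 of which was SFN-fed cKOAstro 2 with its Con-like Aldh7a1 level. SFN over control diet gave a log2 fold change of 0.08 ± 0.10, with an interval of -9.53% to 23.3% (edgeR adjusted p = 0.794), and it was 0.04 without SFN-fed cKOAstro 2 and 0.15 without SFN-fed cKOAstro 7, the lowest library. Between 347 and 3854 reads per library stood behind these values.

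Hmox1 (chromosome 8, 75093621 to 75100589, plus strand) encodes heme oxygenase 1, which breaks down heme and is also prominent in macrophages. ConAstro had 11.3, 12.9, 18.8 and 12.5 CPM and SFN-fed ConAstro 16.1, 13.3, 13.9, 12.997 and 15.5 CPM, all 5 above the ConAstro median and none above its highest library. The log2 fold change was 0.05 ± 0.15 (edgeR adjusted p = 0.957). It was 0.23 without ConAstro 3, the highest control, and 0.01 without SFN-fed ConAstro 1. In cKOAstro the lowest, median and highest libraries had 11.0, 12.4 and 13.6 CPM and in SFN-fed cKOAstro 11.1, 13.8 and 23.1 CPM, with 4 of 7 above every cKOAstro library. On the log2 scale the diet difference was 0.29 ± 0.15, or 22.5% with an interval of -1.94% to 53.2% (edgeR adjusted p = 0.48), and it was 0.16 without SFN-fed cKOAstro 1.

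Markers of macrophages and microglia were high in several of the libraries with high Hmox1. The 3 libraries with the highest Hmox1, SFN-fed cKOAstro 1 (23.1 CPM), ConAstro 3 (18.8 CPM) and SFN-fed cKOAstro 7 (18.6 CPM), had summed levels of 5 macrophage markers (Mrc1, Cd163, Lyve1, Pf4 and F13a1) of 332, 349 and 307 CPM. Over all libraries this sum lay between 81.6 and 349 CPM, and among the others it was highest in SFN-fed ConAstro 2 (302 CPM, Hmox1 13.3 CPM) and SFN-fed ConAstro 5 (326 CPM, Hmox1 15.5 CPM). By group the macrophage sum ran from 141 to 349 CPM in ConAstro, 188 to 326 in SFN-fed ConAstro, 89.5 to 249 in cKOAstro and 81.6 to 332 in SFN-fed cKOAstro, with no marker at 0 in any library. The sum of 10 microglia markers was 3036 CPM in SFN-fed cKOAstro 1 and 3249 CPM in SFN-fed cKOAstro 7, the highest of all, but it was also 2776 CPM in cKOAstro 7 and 2304 CPM in cKOAstro 5, where Hmox1 had 13.6 and 12.4 CPM. Without SFN-fed cKOAstro 1 and 7 the log2 fold change of Hmox1 on the SFN diet in cKOAstro was 0.05 in place of 0.29, an alternative chosen after seeing the data. These 2 libraries were also the highest of their group in Hmox1, so their removal had to lower the value, and the part of macrophages and microglia in it was not tested.

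**Figure D2:**
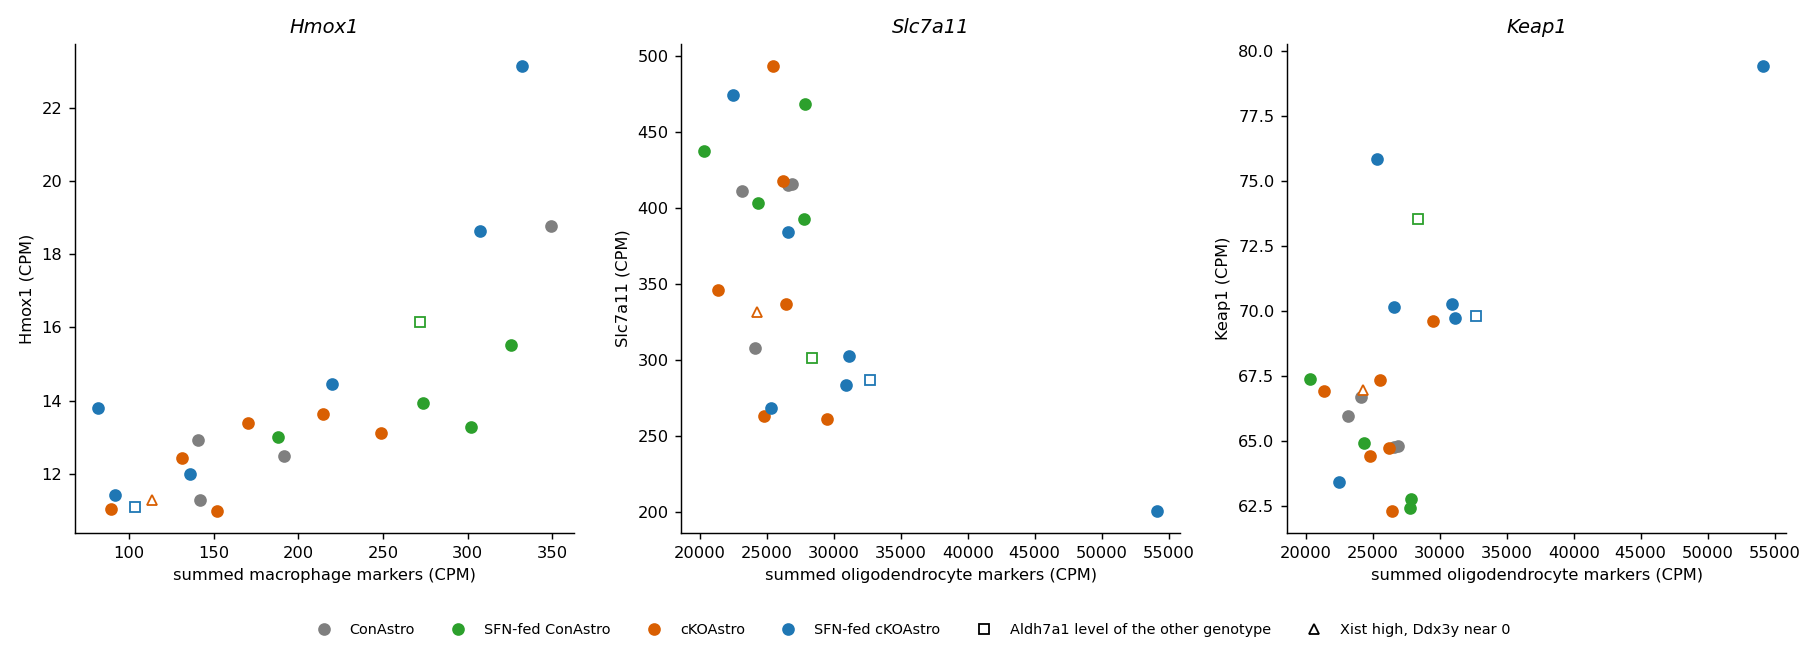
Level of Hmox1 against summed macrophage markers, and of Slc7a11 and Keap1 against summed oligodendrocyte markers, all in CPM on linear axes that do not start at 0, with 1 symbol per library. Colours are groups, open squares the 2 libraries with the Aldh7a1 level of the other genotype, and the open triangle cKOAstro 2. The highest Hmox1 levels (18.6 to 23.1 CPM) lie at macrophage sums of 307 to 349 CPM, and SFN-fed cKOAstro 4, at an oligodendrocyte sum of 54156 CPM, has the lowest Slc7a11 and the highest Keap1 level.

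Osgin1 (chromosome 8, 119434124 to 119446256, plus strand), an oxidative stress induced growth inhibitor, was the member with the fewest reads, 73 to 1069 per library. It had 1.00, 1.41, 1.16 and 1.97 CPM in ConAstro and 2.52, 2.99, 2.15, 1.58 and 0.96 CPM in SFN-fed ConAstro. Of the 5 SFN-fed ConAstro libraries 3 lay above every control and 1 below every control. Among the 3 was SFN-fed ConAstro 1 (2.52 CPM), with its cKO-like Aldh7a1 level. The log2 fold change of Osgin1, 0.56 ± 0.33, was the highest of the members in ConAstro, with an interval of -12.1% to 147% (edgeR adjusted p = 0.814). With 1 library left out it ran from 0.37 to 0.78. In cKOAstro the lowest, median and highest libraries had 1.06, 1.49 and 2.73 CPM and in SFN-fed cKOAstro 1.21, 1.60 and 2.31 CPM. The log2 fold change there was 0.11 ± 0.21 (edgeR adjusted p = 0.872). The highest cKOAstro library was replicate 2, whose Xist and Ddx3y levels go against its label, and without it the log2 fold change was 0.30. Without SFN-fed cKOAstro 5, the highest SFN-fed cKOAstro library, it was 0.01.

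With both genotypes in 1 fit (12 SFN-fed against 11 control libraries, genotype as labelled a covariate) the diet was tested in the most libraries. The SE was below that in either genotype alone for each member except Nfe2l2, with 0.043 against 0.041 in ConAstro. Of the members 0 of 10 passed at the adjusted threshold, against 0% of 17302 genes (DESeq2 called 2, neither a member). Keap1 (edgeR adjusted p = 0.582) had a log2 fold change of 0.08 ± 0.037 and was the single member at an unadjusted p under 0.05, where 8.33% of all genes (1442) lay. The upper end of the 95% interval of the diet difference was 35.5% for Hmox1 and 59.5% for Osgin1. In the other 8 genes it ran from 0.39% for Gclc to 14.9% for Slc7a11, with 5.27% for Txnrd1, 9.94% for Srxn1, 10.4% for Gclm, 10.5% for Nfe2l2, 11.5% for Keap1 and 14.1% for Nqo1. The lower ends ran from -20.8% for Slc7a11 to 0.34% for Keap1. For Nqo1 the log2 fold change was 0.01 ± 0.087 (edgeR adjusted p = 0.988).

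**Figure D3:**
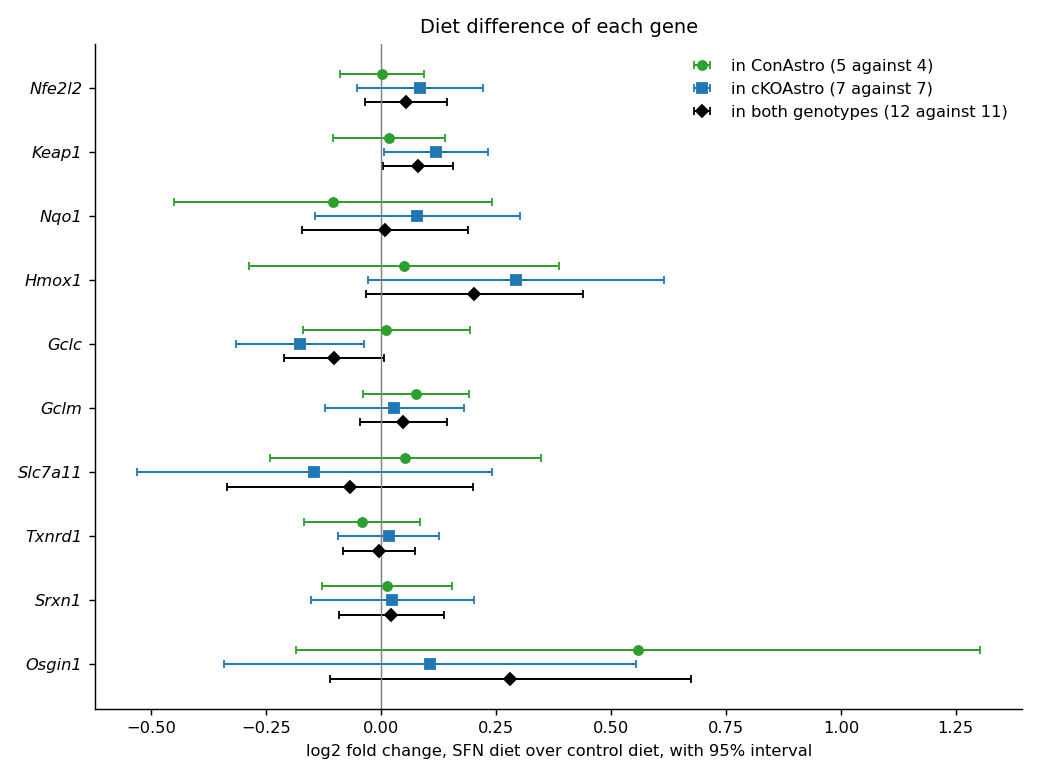
Log2 fold change of each gene on the SFN diet over the control diet, with its 95% interval, from edgeR's quasi-likelihood fits in ConAstro (green circles), in cKOAstro (blue squares) and in both genotypes together (black diamonds). Nearly all intervals span 0. Those of Gclc in cKOAstro and of Keap1 in cKOAstro and in both genotypes do not, at adjusted p of 0.459, 0.459 and 0.582.

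The difference between genotypes in the diet effect did not pass the test for any member. The interaction of genotype and diet passed for 0 of 10 members (0% of 17302 genes, 1267 or 7.32% of them at an unadjusted p under 0.05, and 3 genes by DESeq2). It ranged from -0.46 ± 0.39 for Osgin1 to 0.23 ± 0.23 for Hmox1 on the log2 scale. On the control diet, for cKOAstro against ConAstro, 0 of 10 passed (0.023% of 17406 genes, 4 in number, with 3.74% at an unadjusted p under 0.05), and the log2 fold changes ran from -0.18 ± 0.13 for Hmox1 to 0.17 ± 0.27 for Osgin1. Nfe2l2 differed there by -0.03 ± 0.069, with an interval of -11.7% to 8.72% (edgeR adjusted p = 0.982). Between the genotypes on the SFN diet 0 of 10 passed (0% of 16672 genes, of which 3377 or 20.3% had an unadjusted p under 0.05 and DESeq2 called 250), and Slc7a11 had the lowest value, -0.35 ± 0.18 (edgeR adjusted p = 0.292). Both libraries with the Aldh7a1 level of the other genotype were in this fit, and Aldh7a1 itself did not pass. Such a fit cannot show that the members were alike between genotypes. No member passed without these libraries either. These comparisons share their groups with the diet comparisons.

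The members did not share 1 pattern across mice. Over the 23 libraries Pearson's r between the log2 CPM of pairs of members ran from -0.70 (Keap1 and Slc7a11) to 0.42 (Keap1 and Srxn1), where the points share library, depth and cell makeup. The mean of the z-scored log2 CPM of the 8 targets was lowest in cKOAstro 1 (-0.80) and highest in SFN-fed ConAstro 3 (0.78), and it fell on both sides of 0 in each of the 4 groups. The genes whose log2 CPM was most like this mean over 23 libraries, of 17292 genes ranked, were Procr (r = 0.72), Tax1bp1 (r = 0.70) and Adamts15 (r = 0.68). They were picked as the highest of 17292 values, which by itself makes r high, and a chance level was not computed. Over the 17 numbered libraries the same r was 0.77, 0.85 and 0.70. These libraries are among the 23 used to pick the genes, so this is no separate check.

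The wider pathway was read from 12 partners and regulators of NRF2 and 41 further targets. Of the partners, which include the small MAF genes, the competitor Bach1, the ligase subunits Cul3 and Rbx1 and the KEAP1-binding autophagy receptor Sqstm1, 0 of 12 passed at the adjusted threshold on the diet in either genotype. Their median log2 fold change was 0.04 in ConAstro and 0.02 in cKOAstro. Bach1, which encodes a repressor at antioxidant response elements, had 42.1 ± 2.75 CPM in ConAstro and 46.5 ± 2.29 CPM in SFN-fed ConAstro, a log2 fold change of 0.15 ± 0.055 (edgeR adjusted p = 0.762). In cKOAstro that gene had -0.08 ± 0.087.

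Among the further targets 36 were tested in ConAstro and 38 in cKOAstro, and 0 passed in either, with 2 and 7 higher and 0 and 1 lower at an unadjusted p under 0.05 (3.54% of all genes higher and 3% lower in ConAstro, 5.38% higher and 5.5% lower in cKOAstro). In ConAstro the lowest p values belonged, beside Bach1, to Abcg2 and Ugt1a6a. Abcg2, an efflux pump of brain endothelium, had 15.5 ± 2.85 CPM in ConAstro and 21.4 ± 3.34 CPM in SFN-fed ConAstro, a log2 fold change of 0.46 ± 0.15 (edgeR adjusted p = 0.762). The sum of 8 endothelial markers was 609 to 1059 CPM in ConAstro and 857 to 1139 CPM in SFN-fed ConAstro, and its part in this value was not tested. Ugt1a6a, a glucuronosyltransferase, had 3.38 ± 0.64 and 4.53 ± 0.91 CPM, a log2 fold change of 0.43 ± 0.18 (edgeR adjusted p = 0.762).

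In cKOAstro the lowest p values belonged to Gstp1, a glutathione transferase, Taldo1, of the pentose phosphate pathway, and Gss, glutathione synthetase. Gstp1 had 173 ± 13.6 CPM in cKOAstro and 227 ± 67.6 CPM in SFN-fed cKOAstro, a log2 fold change of 0.41 ± 0.15 (edgeR adjusted p = 0.459). Taldo1 had 242 ± 20.0 and 301 ± 70.8 CPM, a log2 fold change of 0.32 ± 0.12, and Gss 43.4 ± 2.54 and 52.7 ± 12.8 CPM, a log2 fold change of 0.29 ± 0.12 (edgeR adjusted p = 0.459 for both). All 3 were highest in SFN-fed cKOAstro 4, at 364, 444 and 80.7 CPM, the library with the most oligodendrocyte markers, and all 3 were lowest among the SFN-fed cKOAstro in replicate 3, which had the fewest (22440 CPM). The oligodendrocyte sum ran from 21377 to 29512 CPM in cKOAstro and from 22440 to 54156 CPM in SFN-fed cKOAstro, and its part in these values was not tested.

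By role, the median log2 fold change in ConAstro and cKOAstro was 0.04 and 0.08 for 12 glutathione enzymes (8 and 9 tested), -0.06 and 0.06 for 4 thiol-related genes (Txn1, Prdx1, Prdx6 and the sestrin gene Sesn2), -0.003 and 0.11 for 6 genes of NADPH supply, 0.10 and 0.21 for 5 heme and iron genes, 0.04 and -0.01 for 9 detoxification genes and 0.28 and 0.005 for 5 efflux pumps (4 and 5 tested). Of the heme and iron genes, and chosen after its values were seen, the ferritin heavy chain gene Fth1 had 0.38 ± 0.16 on the log2 scale in cKOAstro, and its highest level, 4001 CPM, was again in SFN-fed cKOAstro 4.

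**Figure D4:**
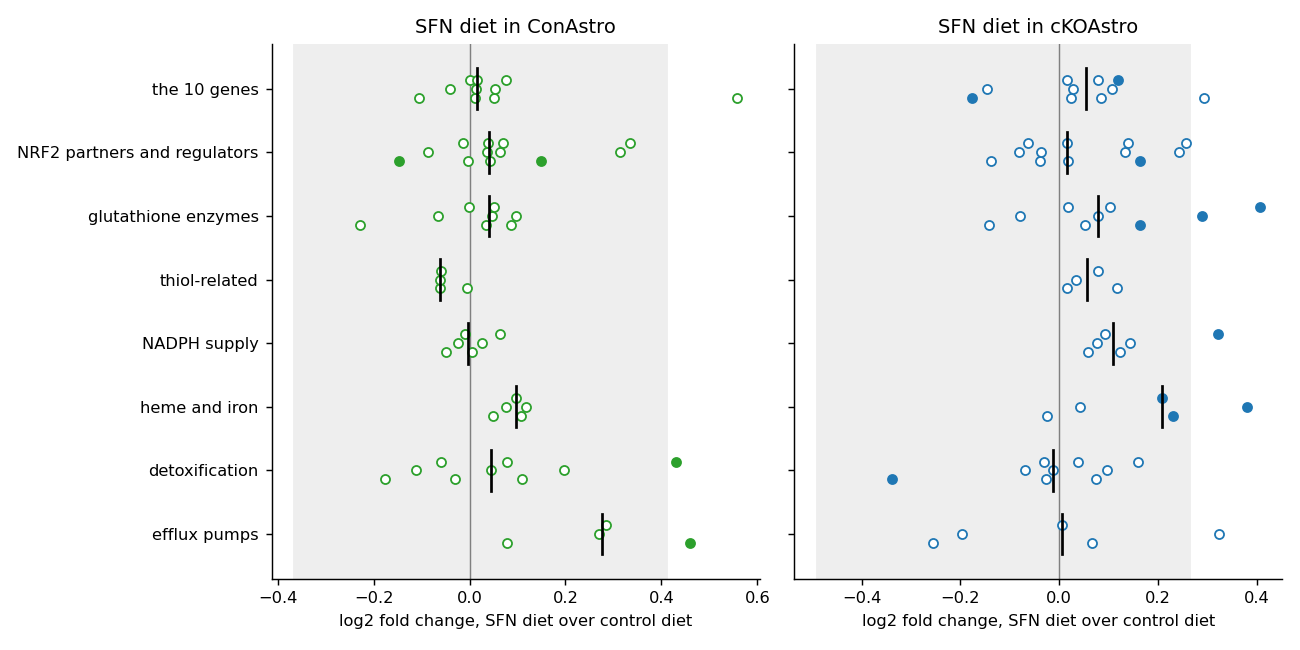
Log2 fold change on the SFN diet over the control diet in ConAstro (left) and cKOAstro (right) for the 10 genes and for other NRF2 partners and targets by role, 1 circle per gene, filled where the unadjusted p was under 0.05. Black bars are medians and the grey band holds the middle 90% of all genes tested. No circle passed the adjusted threshold, and the medians of the 10 genes, 0.01 and 0.05, lie close to 0.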

How the data were processed

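Astrocytes were isolated by papain dissociation and anti-ACSA-2 beads, and poly(A) RNA was sequenced in read pairs with a kit that keeps no strand. The authors checked reads with FastQC, aligned them to mm10 with STAR and deposited raw counts per gene symbol; versions, annotation and strand column are not given in the sources used here. Counts of the 23 libraries were used as deposited. Groups followed the labels, and no 2 libraries were alike within sampling noise. Each comparison was fitted across all genes with edgeR 4.0.16 (limma 3.58.1, R 4.3.3): filterByExpr (minimum count 10, minimum total 15), TMM factors, and the quasi-likelihood F test with Benjamini-Hochberg adjustment over all genes tested, at 0.05. The SE was taken from the fold change and its F value, and intervals are 95%. CPM used TMM factors over all libraries, and log2 CPM a prior count of 2. Coordinates and exon lengths came from GENCODE M21. The fits were tested on simulated counts with planted changes larger than the diet differences of the members. Cell makeup, library names and label errors were not simulated. Whether changes as small as those of the members would be called was thus not tested.

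Named genes were the 10 members, genotype and sex checks, the 3 other NRF2 partners or targets with the lowest p in ConAstro and in cKOAstro, and the 3 genes most like the mean of the 8 targets. Members and lists were chosen with earlier results of these data known. Alternatives were DESeq2 1.42.0, other normalisation, no filter, thinned counts, library names, a replicate block and left-out libraries. Depth was 46890715 counts at the least. Reads carry no molecular identifiers.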

Additional observations from a re-analysis of the deposited data

Results flagged for a closer look

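In 3 of the 40 combinations of gene and group examined, 1 library lay apart from the rest by Dixon's criterion, which chance alone meets in about 1 of 20 groups. Slc7a11 had 308 CPM in ConAstro 3, where the nearest of the other 3 libraries had 411 CPM, a gap of 0.957 of the range of the group against a critical value of 0.829. ConAstro 3 also had the lowest astrocyte marker sum of its group (18954 CPM). Osgin1 had 2.73 CPM in cKOAstro 2, the library whose Xist level goes against its label, where the next had 1.60 CPM (0.68 of the range). Nqo1 had 6.42 CPM in SFN-fed cKOAstro 7, where the next had 9.01 CPM (0.597 of the range against 0.568).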

How the results depend on the processing

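No member passed the adjusted threshold under any alternative run, in 18 alternatives for the diet in ConAstro, 25 in cKOAstro and 31 in both genotypes. Over all genes DESeq2 called 24, 15 and 2 genes for these, 3 for the interaction, 8 for genotype without SFN and 250 for genotype with SFN, and the cause was not tested. For genotype on the control diet the replicate block left 1 gene in place of 4, and leaving out 1 library 2 to 4 (2 without ConAstro 4). On the SFN diet 2 genes were called without both libraries of opposite Aldh7a1 level, and 0 to 701 with 1 library left out (701 without SFN-fed cKOAstro 3). For the diet in ConAstro leaving out 1 library gave 0 to 1 (1 without ConAstro 4).

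Small log2 fold changes changed sign, and the cause was not tested. SFN diet in ConAstro: Nfe2l2 was -0.0070 and SFN diet in ConAstro: Keap1 was -0.027 among numbered libraries, which are those left without the library of opposite Aldh7a1 level, and -0.0041 and -0.025 with names as a covariate. With 1 library left out, the ranges for SFN diet in ConAstro: Gclc were -0.033 to 0.049, SFN diet in ConAstro: Hmox1 -0.040 to 0.23, SFN diet in ConAstro: Keap1 -0.027 to 0.040, SFN diet in ConAstro: Nfe2l2 -0.018 to 0.018, SFN diet in ConAstro: Nqo1 -0.19 to 0.00073, SFN diet in ConAstro: Slc7a11 -0.050 to 0.13 and SFN diet in ConAstro: Srxn1 -0.023 to 0.050. SFN diet in cKOAstro: Txnrd1 was -0.0066 with no filter and -0.0094 among numbered libraries, where SFN diet in cKOAstro: Nqo1 was -0.0036. Among Astro-named libraries SFN diet in cKOAstro: Gclm was -0.021, SFN diet in cKOAstro: Srxn1 -0.17 and SFN diet in cKOAstro: Osgin1 -0.23, and Srxn1 was -0.0098 without the 2 libraries of highest macrophage sum. Left-out ranges were -0.028 to 0.077 for Srxn1 and -0.0041 to 0.055 for Txnrd1. SFN diet in both genotypes: Nqo1 was -0.00012 with no filter, -0.014 with thinned counts and -0.021 among numbered libraries, where SFN diet in both genotypes: Slc7a11 was 0.023. Left-out ranges were -0.033 to 0.048 for Nqo1, -0.0066 to 0.042 for SFN diet in both genotypes: Srxn1 and -0.022 to 0.0094 for SFN diet in both genotypes: Txnrd1.

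Same-numbered libraries did not deviate together (r of -0.17 to 0.13 over 4 pairs in ConAstro and -0.19 to 0.34 over 7 in cKOAstro, with 0 of 8 and 0 of 14 libraries correlating best with their own number), so numbers were not taken as pairs. With the replicate block 0 genes and 0 members were called for the diet, and Osgin1 in ConAstro had 0.75 on the log2 scale. Depth limits Osgin1 most, at 73 reads in its lowest library.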
